A study of Mus musculus with 15 samples.

Results

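Integrin subunit genes were examined in 5 flow-sorted mouse cell populations: stroma, endothelium and epithelium. The set was 9 genes taken by symbol, Itgb1, Itgb4, Itgb5, Itga1, Itga5, Itga6, Itga8, Itga9 and Itgav, and the values of the listed transcripts of each symbol were summed. Of the 9 genes, 8 were found among the 10222 gene symbols of the deposited table, and Itga8 was not analysed here. Values are RPKM, read numbers divided by transcript length in kilobases and by the mapped reads of the library. RPKM does not adjust for a few genes taking up much of a library, so the fits were repeated with other scalings. Levels of genes with several listed transcripts also depend on how shared reads were split.

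All cells were sorted directly from C57BL/6 mice that carry an Il33-citrine reporter, and the labels name no treatment. Mesenchymal stromal cells (MSC) were CD45-, EpCAM-, CD31- and PDGFRα+CD34+. They were taken as Il33-citrine+ and Il33-citrine- cells from white adipose tissue, named mesenteric in the labels (Il33+ and Il33- WAT-MSC), and, in the lung, as Il33-citrine+ cells alone (lung Il33+ MSC). Endothelium was sorted from WAT by CD31, and epithelium from lung by Epcam. Each of the 5 populations had 3 libraries, 15 in all, and the age of the mice is not given in the sources used here. In the comparison of WAT endothelium with lung epithelium the tissue and the cell type cannot be told apart.

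Integrins are cell surface receptors made of 1 alpha and 1 beta chain that tie the extracellular matrix to the actin cytoskeleton. The beta chain β1 pairs with many alpha chains, whereas β4 pairs with α6 alone and links laminin to intermediate filaments in hemidesmosomes. The α5β1 receptor binds fibronectin through the RGD tripeptide, and αv pairs with several beta chains, of which β5 gives a vitronectin receptor. α1β1 binds collagens, with collagen IV of basement membranes among them. α9β1 binds tenascin-C and VCAM-1, and α8β1 binds nephronectin.

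Each of 5 genes, Itgb4, Itgb5, Itga5, Itga6 and Itga9, had 2 listed RefSeq transcripts, and the other 3 genes had 1. Coding segments by which the forms of Itga6, Itgb5 and Itgb4 differ, for Itgb4 the longest one, are shown because the shares of these forms are compared between populations further on. Sequences were read from GENCODE transcripts of build GRCm38, the mm10 assembly, 5′ to 3′ on the plus strand. Capitals mark the exonic coding segment that is absent from the other listed form, and the 15 bases before it in the transcript are in lower case. In Itga6 (chr2:71745616-71858416) the segment of 105 coding bases lies at chr2:71853534-71853638 and codes for the cytoplasmic tail of the α6A form. The form without this exon is α6B, which ends in another tail.
Itga6, NM_008397: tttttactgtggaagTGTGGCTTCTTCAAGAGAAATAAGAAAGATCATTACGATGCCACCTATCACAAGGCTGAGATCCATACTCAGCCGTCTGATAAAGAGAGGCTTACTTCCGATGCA
In Itgb5 (chr16:33829665-33949338) a segment of 29 bases at chr16:33947853-33947881 shifts the reading frame near the 3′ end, so that the protein has 799 residues with it and 816 without it.
Itgb5, NM_001145884: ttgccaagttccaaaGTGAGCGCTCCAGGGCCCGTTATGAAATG
In Itgb4 (chr11:115974709-116008412) a segment of 159 bases at chr11:116005897-116006055 is part of the longer form of 1802 residues, against 1753 residues in the other form. The other form has segments of 3 bases (chr11:115989719-115989721) and 9 bases (chr11:115998146-115998154) that the longer form lacks.
Itgb4, NM_001005608: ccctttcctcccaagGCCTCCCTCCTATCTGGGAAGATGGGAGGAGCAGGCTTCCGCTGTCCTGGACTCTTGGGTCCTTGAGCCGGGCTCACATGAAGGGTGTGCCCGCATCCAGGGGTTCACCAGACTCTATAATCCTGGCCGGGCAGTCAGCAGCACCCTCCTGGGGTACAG
For Itga9 (chr9:118606690-118901003) no short segment tells the forms apart, since the short form of 14 exons and 450 residues lacks the 5′ exons of the full-length form, which has 28 exons and 1036 residues. Both Itga5 transcripts (chr15:103344286-103366763, minus strand) map to the same GENCODE model, so the table's split between them has no sequence of its own here. The single-transcript genes are Itgb1 (chr8:128685654-128733200), Itga1 (chr13:114953096-115101964, minus strand) and Itgav (chr2:83724397-83806916).

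The libraries held 42711843 to 60773158 alignments. Without read counts per gene the counting error cannot be given, and errors are SDs between libraries. In the epithelial libraries Scgb1a1, a club cell secretory protein, took 57.7 to 62.9% of the summed RPKM. The populations were checked by marker genes. The summed RPKM of 9 endothelial markers was 615.9 to 785.0 in the endothelial libraries, 65.76 to 105.0 in the epithelial libraries and 13.87 to 79.35 in stroma. That of 8 epithelial markers was at least 162100 in the epithelial libraries and at most 548.3 elsewhere. Scgb1a1 alone was at 160613 to 208003 RPKM in epithelium. Cdh1 was at 85.63 to 113.09 RPKM in epithelium and at most 1.10 elsewhere, and Krt19 at 75.54 to 152.76 and at most 45.40. Sftpc was at 902.94 to 1925.28 RPKM in epithelium, 27.98 to 93.44 in lung Il33+ MSC and at most 1.41 in WAT. The 8 stromal markers summed to 4351 to 9022 in the 9 stromal libraries, 1827 to 3742 in the endothelial libraries and 95.98 to 186.0 in the epithelial libraries. The endothelial libraries also held 5 pericyte and smooth muscle markers at a summed 178.3 to 257.3, against 2.30 to 26.05 in all others. Endothelial library 1 listed 11.02% of genes at 0, against 1.63 to 7.03% in the other 14 libraries.

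Itgb1, which codes for the shared β1 chain, was the most abundant of the 8 genes in each population. It was listed at 45.65, 59.31 and 49.14 RPKM in Il33+ WAT-MSC, at 42.32, 56.33 and 53.16 in Il33- WAT-MSC and at 36.07, 38.26 and 45.27 in lung Il33+ MSC. The endothelial libraries spread most, at 82.77, 36.48 and 59.74 RPKM, and the epithelial libraries were at 20.03, 20.34 and 24.59. All 3 epithelial libraries were below the 12 others, and the remaining populations overlapped with their neighbours in the order of means: endothelium 59.7 ± 23.1 (SD, n = 3), Il33+ WAT-MSC 51.4 ± 7.10, Il33- WAT-MSC 50.6 ± 7.35, lung Il33+ MSC 39.9 ± 4.81 and epithelium 21.65 ± 2.55.

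Itgb5 and Itgav, the chains of the αvβ5 vitronectin receptor, were both highest on average in stroma, but fell off differently. Itgb5 was at 26.70, 23.50 and 25.94 RPKM in Il33+ WAT-MSC, 19.96, 20.10 and 21.55 in Il33- WAT-MSC, and 20.60, 22.26 and 18.12 in lung Il33+ MSC. It was at 7.38, 9.59 and 13.92 RPKM in endothelium and 3.89, 2.99 and 2.69 in epithelium. Its levels thus fell into 4 steps without overlap, in which only Il33- WAT-MSC and lung Il33+ MSC shared a step. Itgav was at 13.37, 9.93 and 10.96 RPKM in Il33+ WAT-MSC, 6.39, 11.56 and 12.16 in Il33- WAT-MSC, 7.46, 8.94 and 8.14 in lung Il33+ MSC, 3.89, 8.97 and 8.49 in endothelium, and 4.73, 2.76 and 3.99 in epithelium. Every neighbouring pair in the order of Itgav means overlapped, from 11.4 ± 1.77 RPKM in Il33+ WAT-MSC to 3.83 ± 1.00 in epithelium. The ratio of Itgav to Itgb5 was 0.449 ± 0.0452 in Il33+ WAT-MSC and 1.21 ± 0.280 in epithelium.

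Itga5, the alpha chain of the fibronectin receptor, was at 18.71, 15.23 and 18.74 RPKM in Il33+ WAT-MSC, 9.73, 28.48 and 42.41 in Il33- WAT-MSC, 21.72, 22.57 and 34.61 in lung Il33+ MSC and 11.56, 27.31 and 33.77 in endothelium. In epithelium it was at 2.03, 2.35 and 3.07. The 3 epithelial libraries lay below all others, and the stromal and endothelial populations overlapped with their neighbours in the order of means. Itga9, whose receptor binds tenascin-C and VCAM-1, was the most even of the 8 genes by its means, between 17.75 ± 4.79 RPKM in Il33+ WAT-MSC and 7.47 ± 5.78 in epithelium. Its epithelial libraries were at 3.83, 4.44 and 14.13, so the third lay among the stromal values, which ran from 10.58 to 23.21. The endothelial values of Itga9 were 16.27, 11.83 and 22.30.

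Itga1, the alpha chain of a collagen receptor, was low outside endothelium. It was at 1.72, 1.22 and 1.27 RPKM in Il33+ WAT-MSC, 0.68, 1.17 and 1.39 in Il33- WAT-MSC, 0.98, 2.64 and 2.15 in lung Il33+ MSC and 1.93, 2.22 and 2.08 in epithelium. All 3 endothelial libraries, at 6.43, 8.89 and 10.02, were above the other 12, which overlapped from each population to the next.

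Itgb4 and Itga6, the chains of the laminin receptor α6β4, were near 0 in stroma and present in endothelium and epithelium. Itgb4 was at 0.25, 0.04 and 0.40 RPKM in Il33+ WAT-MSC, 0.03, 0.05 and 0.02 in Il33- WAT-MSC and 0.22, 0.08 and 0.08 in lung Il33+ MSC. It was at 22.29, 11.75 and 12.07 in endothelium and 3.46, 9.61 and 7.36 in epithelium. All endothelial libraries were above all epithelial libraries, which were above all stromal libraries. Itga6 was ordered in the same way: 0.24, 0.21 and 0.75 RPKM in Il33+ WAT-MSC, 0.17, 0.35 and 0.39 in Il33- WAT-MSC, 0.59, 0.95 and 0.96 in lung Il33+ MSC, 10.86, 21.08 and 13.28 in endothelium and 2.05, 4.39 and 3.70 in epithelium. By mean RPKM, Itgb4 ranked 1551 and Itga6 ranked 1592 of the 10222 genes in endothelium, against ranks of 9343 and 9092 in Il33+ WAT-MSC.

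**Figure D1:**
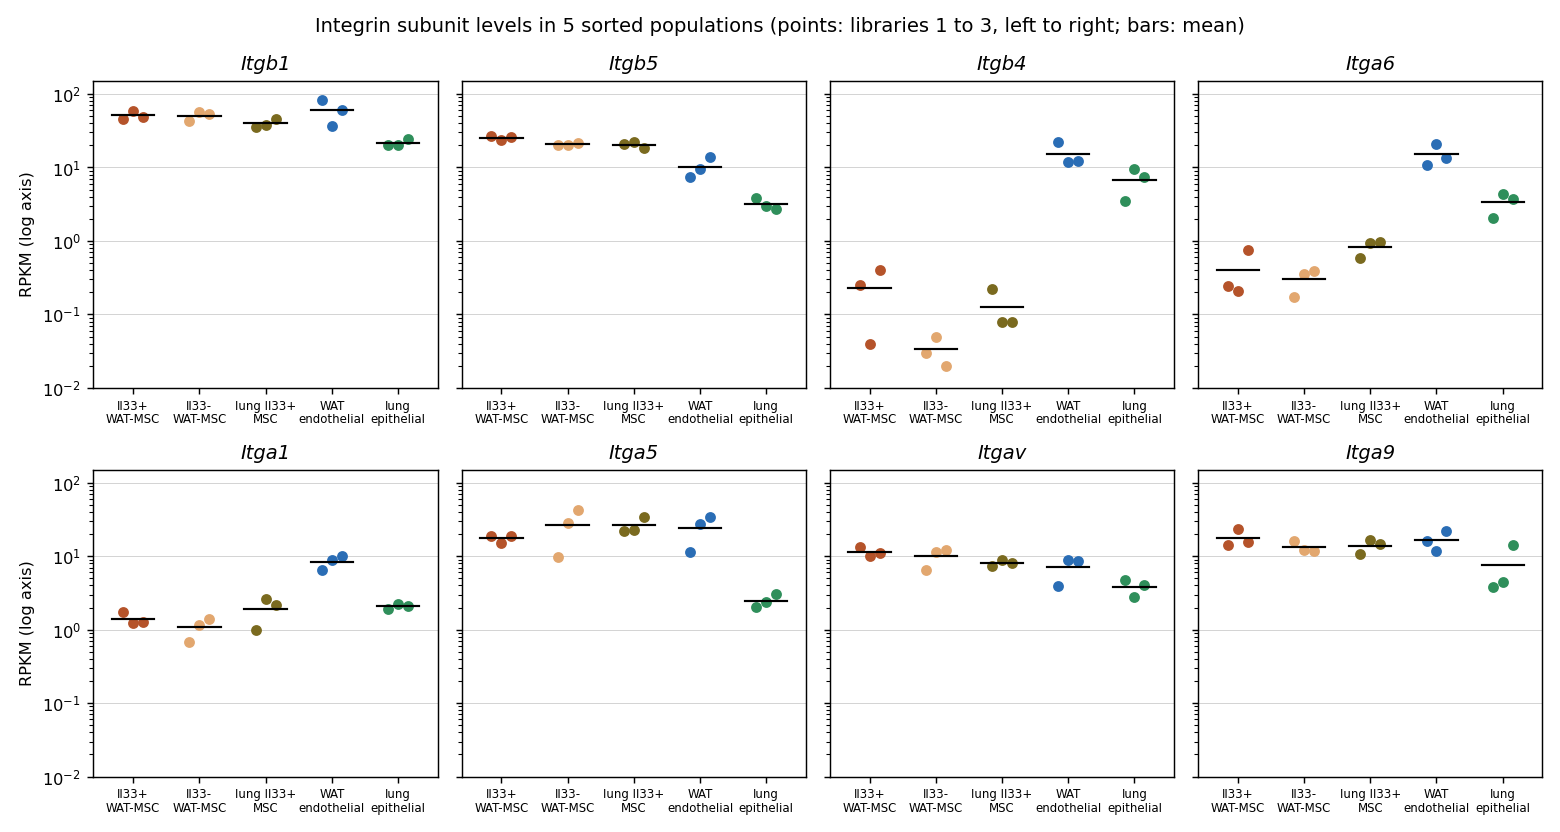
RPKM (log axis) of 8 integrin subunit genes in the 3 libraries (points, libraries 1 to 3 from left to right) of each of 5 populations, with bars at the means. Itgb4 and Itga6 were below 1 RPKM in all 9 stromal libraries and above 2 in all 6 endothelial and epithelial libraries, whereas the other genes differed less between stroma and endothelium.

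Differences were tested with limma on log2(RPKM + 1) across all genes that reached 1 RPKM in 3 or more of the 6 libraries, and a gene was called when its Benjamini-Hochberg adjusted p was under 0.05. The added 1 shrinks the differences of low genes, so ratios of mean RPKM are given beside them. Positive values mean higher in the population named first.

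Il33+ and Il33- WAT-MSC, the same gate split by the reporter, had no called difference among the integrin genes tested. Of the 8 genes 6 were tested, and Itgb4 and Itga6 were under the filter. No tested gene of the 8 had an unadjusted p under 0.05, against 980 of the 8448 genes tested across the table, and limma called 1.57% of all genes, 0.923% as higher and 0.651% as lower in Il33+ cells. Itgb5 was the only gene of the 6 whose libraries did not overlap, as for 17.5% of all genes tested, with a log2 difference of 0.29 (95% interval -0.19 to 0.77; limma adjusted p = 0.673). The interval was narrowest for Itgb5 (SE 0.22) and widest for Itga5, at -1.31 to 0.56 around -0.37, since Il33- WAT-MSC library 1 was at 9.73 RPKM and the other 2 were at 28.48 and 42.41. For Itgb1 the interval ran from -0.47 to 0.51 around 0.02, for Itga1 from -0.56 to 1.00, for Itga9 from -0.22 to 0.96 and for Itgav from -0.44 to 0.86. Within the sequencing lanes 2 of the 6 genes kept 1 direction.

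Between the Il33+ stroma of WAT and of lung, no gene of the set was called either, of 6 tested. The table as a whole had 6.00% of genes called, 2.50% as higher and 3.50% as lower in WAT. Itga5 came nearest, with a log2 difference of -0.53 (SE 0.23, 95% interval -1.04 to -0.02; limma adjusted p = 0.268). The libraries of Itgb1, Itgb5, Itga5 and Itgav did not overlap between the tissues, and 23.1% of all tested genes likewise did not overlap. Log2 differences of the other 5 genes ranged from -0.24 for Itga1 to 0.43 for Itgav, with limma adjusted p between 0.360 and 0.776. Leukocyte markers also differed in this comparison, and 4 of the 8 listed were in the table (Itgb2, Cd68, Lyz2 and Cd52). They summed to 5.85 to 9.80 RPKM in Il33+ WAT-MSC and 126.1 to 164.8 in lung Il33+ MSC. Of the lung sums Lyz2 alone made up 144.87, 129.26 and 105.40 RPKM, and it was at 658.02 to 1301.32 in lung epithelium. Itgb2, Cd68 and Cd52 had means of 6.15, 12.4 and 1.08 RPKM in lung Il33+ MSC, against 0.117, 4.69 and 0.117 in Il33+ WAT-MSC. The part of leukocytes in the integrin values was not tested.

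Stroma and endothelium of WAT differed in the laminin and collagen receptor chains. Itgb4, Itga6 and Itga1 were lower in Il33+ WAT-MSC, 3 of the 8 genes tested, where the table had 3.90% of genes called, 0.565% as higher and 3.34% as lower in stroma. Itgb4 had a log2 difference of -3.69 (SE 0.42; limma adjusted p = 0.00174) and its mean RPKM was 66.8-fold higher in endothelium. Itga6 had a log2 difference of -3.49 (SE 0.42; limma adjusted p = 0.00215) and was 37.7-fold higher in endothelium by mean RPKM. Both genes passed the filter through the endothelial libraries alone, so that the filter itself required them to differ. The β4 and α6 genes were also called against Il33- WAT-MSC, in a fit with the same endothelial libraries, as was Itga1 (log2 differences -3.93, -3.58 and -2.18). In that fit too, Itgb4 and Itga6 passed the filter through the endothelial libraries alone. Itga1 had a log2 difference of -1.96 (SE 0.38; limma adjusted p = 0.0245), a 6.02-fold higher mean in endothelium. The difference of Itga1 stayed between -2.13 and -1.84 in the 6 fits that each left out a library, but the call was lost in 5 of them, without endothelial library 2 or 3 (limma adjusted p = 0.170 and 0.0736) or Il33+ WAT-MSC library 1, 2 or 3 (limma adjusted p = 0.103, 0.0982 and 0.128).

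Itgb5 went the other way, at a log2 difference of 1.26 (SE 0.31, 95% interval 0.56 to 1.96), without overlap, but was not called (limma adjusted p = 0.0656). Under quantile normalization its limma adjusted p was 0.0476, which made 1 gene higher and 3 lower, and without endothelial library 3 it was 0.0446 at a log2 difference of 1.48. The β1 and α5 genes had intervals on both sides of 0, from -0.90 to 0.61 for Itgb1 and from -1.23 to 0.58 for Itga5, as did Itga9, from -0.68 to 0.85, and Itgav, from -0.18 to 1.53. The median of all genes was 0.18 in this comparison and 0.03 after median-ratio scaling. Relative to it, Itgb4, Itga6 and Itga1 were at -3.86, -3.67 and -2.14 as deposited and at -3.85, -3.65 and -2.14 after scaling. Stromal markers were present in the endothelial libraries, with a median of 32.57, 32.37 and 63.05% of their mean level in Il33+ WAT-MSC, and pericyte and smooth muscle markers were higher there than in stroma. The 5 mesothelial markers summed to 52.38, 145.0 and 186.1 RPKM in endothelium and 29.99 to 98.21 in Il33+ WAT-MSC. The part of these cells in the endothelial integrin values was not tested, and in bulk libraries fewer cells of a type and less RNA per cell cannot be told apart.

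Between stroma and epithelium of lung, genes of the set were called in both directions. Itga5, Itgb5, Itgav and Itgb1 were higher in lung Il33+ MSC and Itgb4 and Itga6 were higher in epithelium, 6 of the 8 genes tested. The whole table had 43.0% of genes called, 24.4% as higher and 18.5% as lower in stroma, so calls were common here. Itga5 had a log2 difference of 2.95 (SE 0.26; limma adjusted p = 1.91e-05), a 10.6-fold higher mean in stroma. Itgb5 was at 2.35 (SE 0.23; limma adjusted p = 3.39e-05), 6.37-fold, and Itgb1 at 0.85 (SE 0.20; limma adjusted p = 0.00741), 1.84-fold. Itgav was at 0.95 (SE 0.26; limma adjusted p = 0.0145), 2.14-fold. These genes code for chains of the fibronectin and vitronectin receptors. Itgb4 had a log2 difference of -2.71 (SE 0.35; limma adjusted p = 0.000200) and Itga6 of -1.22 (SE 0.30; limma adjusted p = 0.00879), with means 53.8 and 4.06-fold higher in epithelium, and both passed the filter through the epithelial libraries alone.

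Itga9 was not called at 1.00 (95% interval 0.05 to 1.95; limma adjusted p = 0.0858), with epithelial library 3 at 14.13 RPKM against 3.83 and 4.44 in the others. Without that library the log2 difference of Itga9 was 1.52 and its limma adjusted p 0.00350. Itga1 had an interval of -0.80 to 0.56. The median of all genes moved from 0.13 to -0.06 with median-ratio scaling, which lowered the share of called genes that were higher in stroma from 56.9 to 48.3%. Relative to that median Itga5, Itgb5, Itgb1 and Itgav were at 2.82, 2.22, 0.72 and 0.81 as deposited and at 2.80, 2.19, 0.67 and 0.79 after scaling. The call of Itgav was lost with this scaling (limma adjusted p = 0.0733) and without epithelial library 2 (limma adjusted p = 0.0662) or lung Il33+ MSC library 2 (limma adjusted p = 0.0701), and that of Itgb1 with quantile normalization, where its log2 difference was 0.39 (limma adjusted p = 0.102). The same 4 leukocyte markers summed to 667.2 to 1327 RPKM in the epithelial libraries, of which Lyz2, the lysozyme gene, held 658.02, 1059.35 and 1301.32. Itgb2 and Cd68 had means of 5.06 and 12.1 RPKM there, against 6.15 and 12.43 in lung Il33+ MSC. The part of leukocytes in these values was not tested.

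Endothelium of WAT and epithelium of lung, which both held Itga6 and Itgb4 RNA, still differed in most of the other genes of the set. Itga5, Itga6, Itga1, Itgb5 and Itgb1 were higher in endothelium, 5 of the 8 genes tested, and none was called as lower. Over all genes 27.6% were called, 14.9% as higher and 12.8% as lower in endothelium. The log2 difference was 2.74 (SE 0.43; limma adjusted p = 0.00208) for Itga5, a 9.75-fold higher mean, and 1.87 (SE 0.38; limma adjusted p = 0.00777) for Itga6, 4.46-fold. Itga1 was at 1.60 (SE 0.34; limma adjusted p = 0.00868), Itgb5 at 1.40 (SE 0.35; limma adjusted p = 0.0193) and Itgb1 at 1.35 (SE 0.34; limma adjusted p = 0.0187). Itgb4 was 2.26-fold higher by mean RPKM without overlap but not called (log2 difference 1.10, 95% interval 0.11 to 2.08; limma adjusted p = 0.0975). Itga9 (limma adjusted p = 0.103) and Itgav (limma adjusted p = 0.254) were not called either, but Itga9 was without epithelial library 3 (1.75; limma adjusted p = 0.0312) and Itgav without endothelial library 1 (1.03; limma adjusted p = 0.0465).

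Of these calls, Itga5 and Itga6 were kept in each of the 6 fits without a library. The call of Itgb1 was lost without any 1 of the 3 epithelial libraries (limma adjusted p = 0.0746, 0.0823 and 0.0516), and that of Itga1 without epithelial library 2 or 3 (limma adjusted p = 0.0597 and 0.0604). That of Itgb5 was kept in 1 of the 6 fits, the fit without endothelial library 1, with a limma adjusted p of up to 0.107 in the others. Without epithelial libraries 1, 2 and 3 in turn, 3, 2 and 3 genes of the set were called. The median of all genes moved from 0.08 to -0.14 with median-ratio scaling, and the share of called genes that were higher in endothelium from 53.8 to 43.0%. Relative to the median Itgb1 was at 1.28 as deposited and 1.23 after scaling, where its limma adjusted p was 0.0923. Within the sequencing lanes all 8 genes kept their direction in this comparison, and over all 5 comparisons the 14 called differences had the same sign in both lanes. For those 14 the libraries of the compared populations did not overlap, so any split by lane had to give the same sign.

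**Figure D2:**
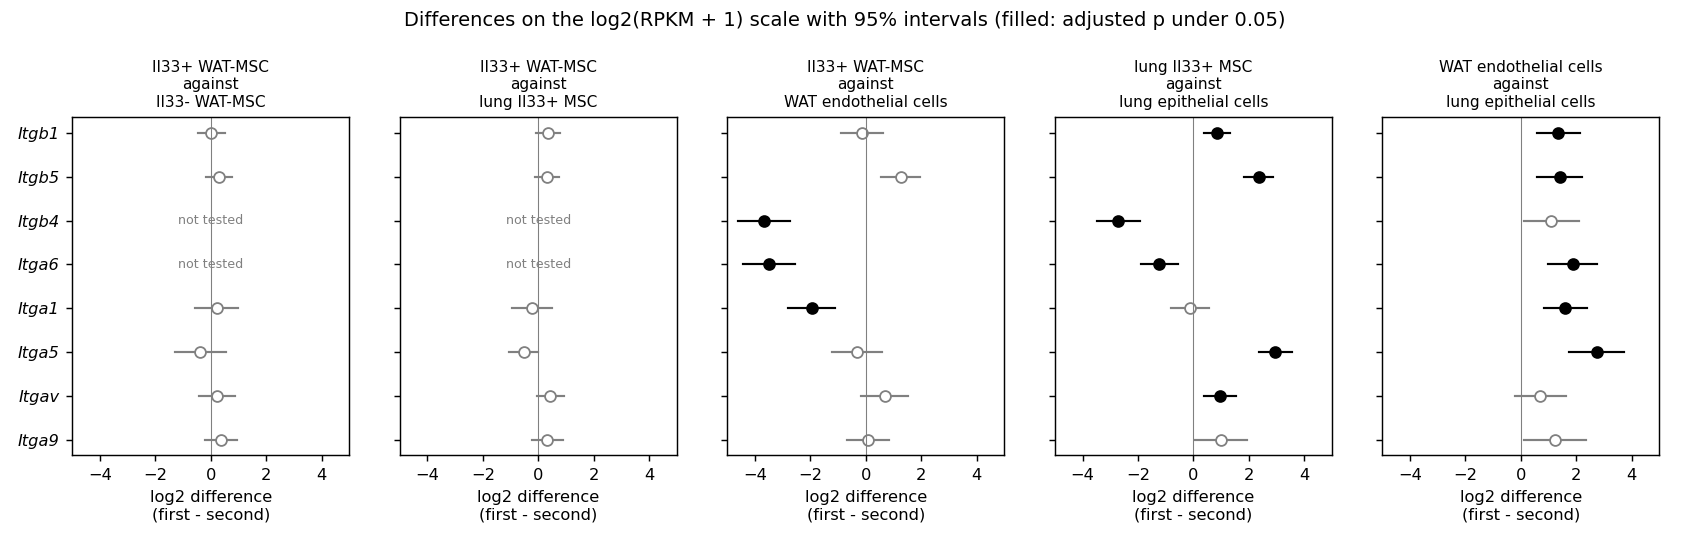
Differences of the 8 genes on the log2(RPKM + 1) scale (x axis, first minus second population) in 5 comparisons, with 95% intervals as lines; filled points have a limma adjusted p under 0.05. No point is filled in the 2 comparisons within stroma, 3 are filled against WAT endothelium, 6 between lung stroma and epithelium and 5 between endothelium and epithelium.

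The make-up of each library's integrin RPKM does not change when the library is multiplied by a single factor, as in median-ratio scaling. Shares under quantile normalization were not computed. Among the 5 alpha genes of the set, Itga6 held 0.422 to 1.84% of the summed RPKM in the 9 stromal libraries, 22.2, 27.0 and 15.1% in the endothelial libraries and 14.1, 27.2 and 13.7% in the epithelial libraries. Itga1 held 2.04 to 5.12% in stroma, 13.1, 11.4 and 11.4% in endothelium and 13.3, 13.7 and 7.71% in epithelium. Itga6 and Itga1 thus each took a larger share of these 5 genes in every endothelial and epithelial library than in any stromal library. Another collagen receptor gene, Itga11, is outside the set. Among all alpha genes in the table it held 50.15% in Il33+ WAT-MSC, 20.45% in endothelium and 2.23% in epithelium on average. Itga5 made up 36.3 ± 4.93% (SD, n = 3) in Il33+ WAT-MSC, 48.2 ± 17.0% in Il33- WAT-MSC, 51.2 ± 6.86% in lung Il33+ MSC and 32.3 ± 7.77% in endothelium, but 13.3 ± 1.68% in epithelium. The 3 epithelial libraries were lowest, at 13.9, 14.5 and 11.4%. Itgav held 9.70 ± 1.78% in endothelium and 21.45 ± 9.61% in epithelium, with 13.46 to 27.69% in the stromal libraries.

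Among the 3 beta genes Itgb1 had nearly the same share everywhere, from 65.95 ± 4.65% in lung Il33+ MSC to 70.9 ± 2.88% in Il33- WAT-MSC. Since the 3 shares make up the whole, the rest was necessarily divided between Itgb5 and Itgb4. Itgb5 held 26.3 to 36.8% in the stromal libraries, 6.56, 16.6 and 16.2% in endothelium and 14.2, 9.08 and 7.77% in epithelium. Itgb4 held at most 0.530% in stroma, 19.8, 20.3 and 14.1% in endothelium and 12.6, 29.2 and 21.25% in epithelium. Among all beta genes in the table, Itgb1 ranged more widely, from 57.1 ± 3.87% in lung Il33+ MSC to 66.9 ± 1.10% in Il33- WAT-MSC. On that base Itgb2 held 8.83 ± 0.565% in lung Il33+ MSC and 12.5 ± 6.51% in epithelium. Since α6 is the only partner of β4, the ratio of their RPKM was taken as well. Itgb4 over Itga6 was 1.69, 2.19 and 1.99 in the epithelial libraries and 2.05, 0.557 and 0.909 in the endothelial libraries, so that only endothelial library 1 reached the epithelial range. The summed RPKM of the 8 genes was 157.0 ± 19.2 in endothelium, 125.5 ± 6.28 in Il33+ WAT-MSC, 122.8 ± 24.5 in Il33- WAT-MSC, 111.5 ± 12.9 in lung Il33+ MSC and 50.9 ± 9.95 in epithelium.

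**Figure D3:**
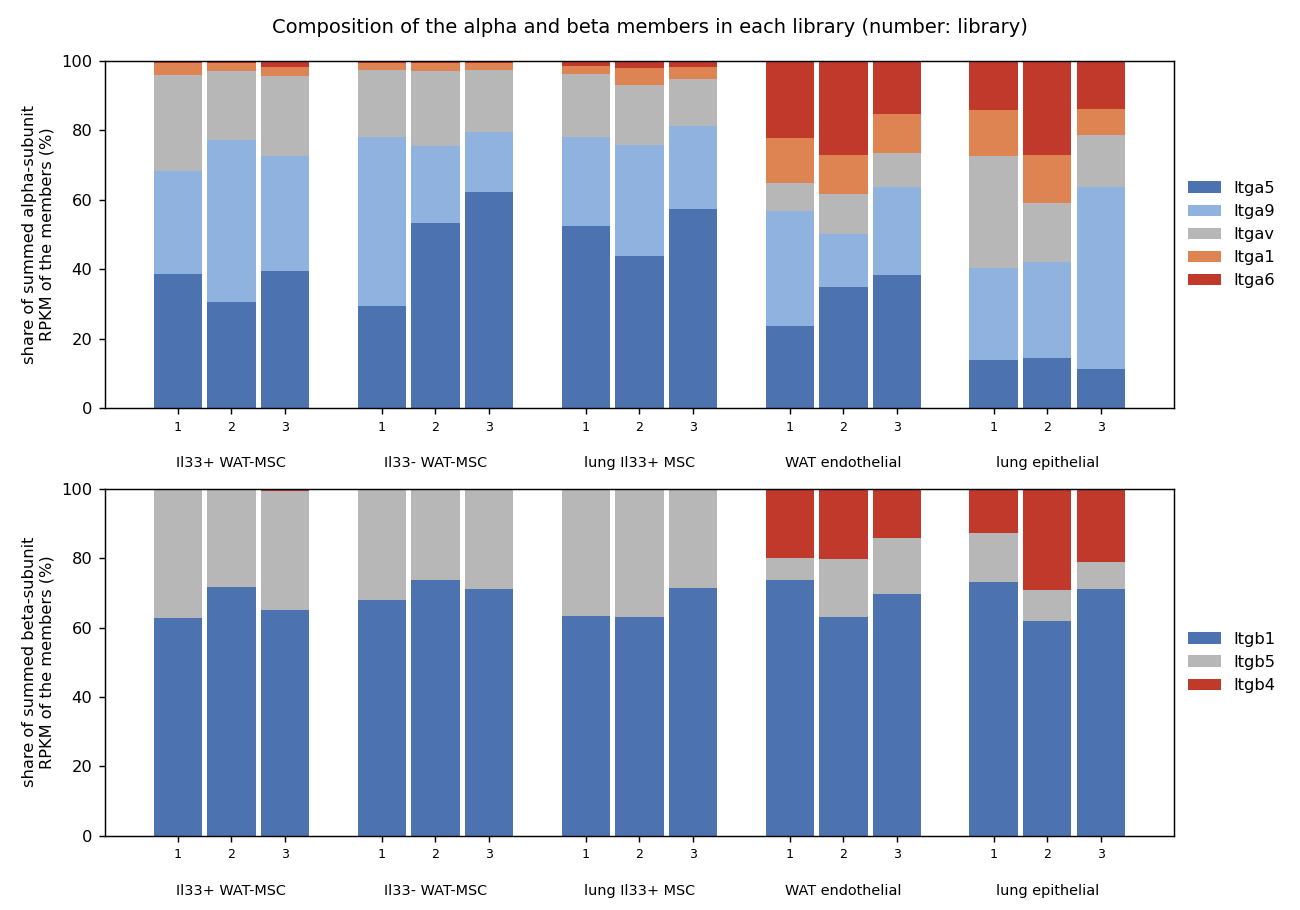
Share (%) of each gene in the summed RPKM of the 5 alpha genes (top) and the 3 beta genes (bottom) of the set, 1 stacked bar for each of the 15 libraries. Red blocks, Itga6 and Itgb4, fill 13.7 to 27.2% and 12.6 to 29.2% of the endothelial and epithelial bars and are barely visible in stroma.

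The listed transcripts of a gene did not change together in every case. For Itga6, the α6A form with the segment shown above held 93.7, 82.7 and 82.4% of the gene's RPKM in epithelium and 78.0 and 80.9% in endothelial libraries 2 and 3. Endothelial library 1 was the exception, with 27.6% α6A and α6B at 7.86 RPKM. With the most abundant transcript in place of the sum, the difference of Itga6 between endothelium and epithelium was 1.30 and no longer called (limma adjusted p = 0.133). The form of Itgb5 with the frame-shifting segment held 63.9 to 78.2% in all 12 stromal and endothelial libraries and 45.8, 52.5 and 47.2% in the 3 epithelial ones, which were the lowest of the 15. In RPKM this form fell from 18.9 ± 0.591 in Il33+ WAT-MSC to 1.54 ± 0.256 in epithelium, and the other form from 6.51 ± 1.14 to 1.65 ± 0.398.

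The longer Itgb4 form made up 22.6, 22.6 and 37.6% in endothelium and 22.5, 22.6 and 20.1% in epithelium, and thus repeated to within 0.1 percentage points in 4 of the 6 libraries. For Itga9 the short form held 68.5 to 99.8% in each of the 15 libraries, and full-length Itga9 was listed at 0.03 to 3.37 RPKM. The listed Itga9 level therefore rests mainly on a transcript of 450 residues, which lacks the N-terminal part of the chain. RPKM divides by the length of each transcript, and the rule by which reads common to several forms were split is not given in the sources used here, so these shares are as the authors' table has them. Whether the repeated Itgb4 shares depend on that rule was not tested.

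**Figure D4:**
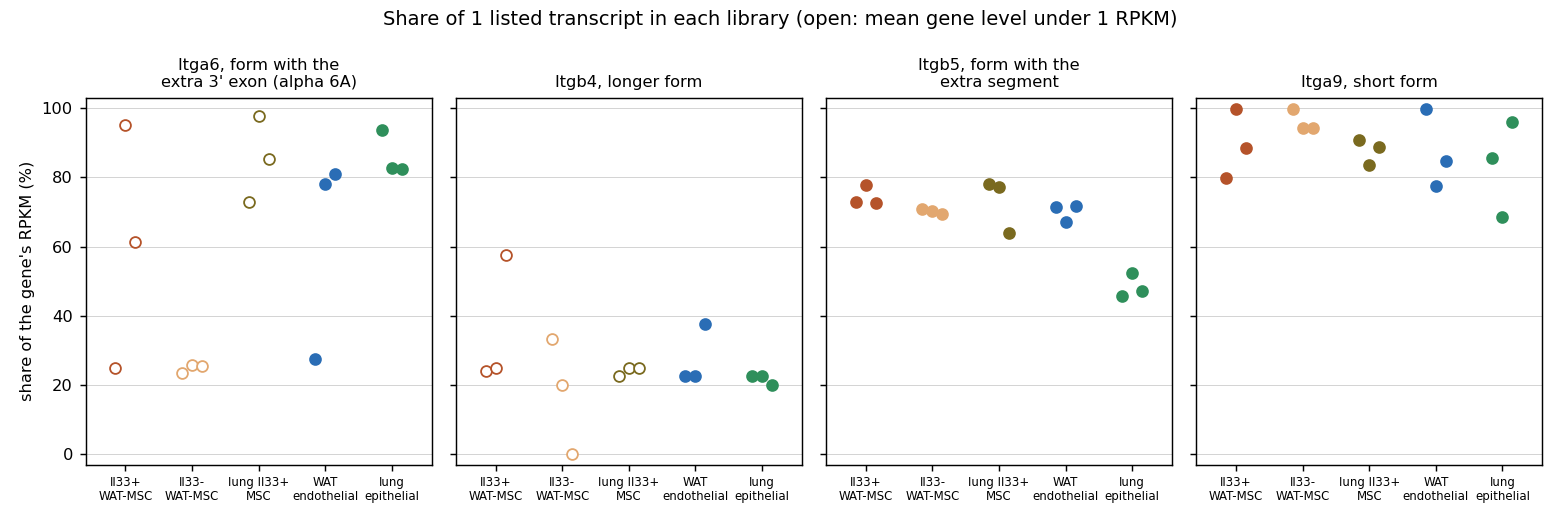
Share (%) of 1 listed transcript in the RPKM of its gene, in the 3 libraries of each population; open points mark populations in which the gene's mean was under 1 RPKM. The Itgb5 form is lowest in the 3 epithelial libraries (45.8 to 52.5%), and endothelial library 1 stands apart for Itga6 (27.6%).

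The family list of 27 integrin genes held another 6 that the table had, Itga3, Itga4, Itga11, Itgb2, Itgb3 and Itgb7. Itga11, which codes for a fibrillar collagen receptor chain, exceeded every alpha gene of the set in the WAT stroma, at 51.29, 50.24 and 48.37 RPKM in Il33+ WAT-MSC and 32.01, 52.08 and 45.61 in Il33- WAT-MSC. It was at 9.25, 10.37 and 9.35 RPKM in lung Il33+ MSC, and was called higher in Il33+ WAT-MSC (log2 difference 2.26, SE 0.18; limma adjusted p = 0.000118). WAT endothelium held Itga11 at 16.95, 17.70 and 23.44 RPKM, where it was called lower than in Il33+ WAT-MSC (log2 difference 1.34; limma adjusted p = 0.0243), and epithelium held it at 0.49, 0.69 and 0.95. Collagen receptor chains thus differed in opposite directions between WAT stroma and endothelium, with Itga11 higher in stroma and Itga1 higher in endothelium. The call of Itga1 was kept in only 1 of the 6 fits that each left out a library. Stromal markers were present in the endothelial libraries, and the part of stromal cells in their Itga11 level was not tested. Counting Itga11, Itga1 and Itga6 held 8.78 ± 0.277% and 15.75 ± 4.51% of the summed RPKM of 8 alpha genes in endothelium, and 1.41 ± 0.277% and 0.404 ± 0.311% in Il33+ WAT-MSC. On this wider base Itga5 held 17.6 ± 2.20% in Il33+ WAT-MSC and 24.0 ± 6.72% in endothelium, so that the order of their means turned from that among the 5 alpha genes of the set.

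Itga3, the alpha chain of another laminin receptor, was at 10.84, 8.74 and 8.61 RPKM in epithelium, 2.20, 5.04 and 4.18 in endothelium and at most 2.13 in the stromal libraries. It was higher in epithelium than in lung Il33+ MSC (log2 difference -2.84 for stroma; limma adjusted p = 0.000119) and than in endothelium (-1.16; limma adjusted p = 0.0459), whereas Itga6 was higher in endothelium. Itgb2, a leukocyte integrin chain, was higher in lung than in WAT Il33+ MSC (limma adjusted p = 0.000371), at 5.92, 5.78 and 6.75 RPKM against 0.12, 0.20 and 0.03, and passed the filter through the lung libraries alone. Itgb3, the β3 partner of αv, was at 0.17 to 6.25 RPKM and was not called in any of the 5 comparisons.

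**Figure D5:**
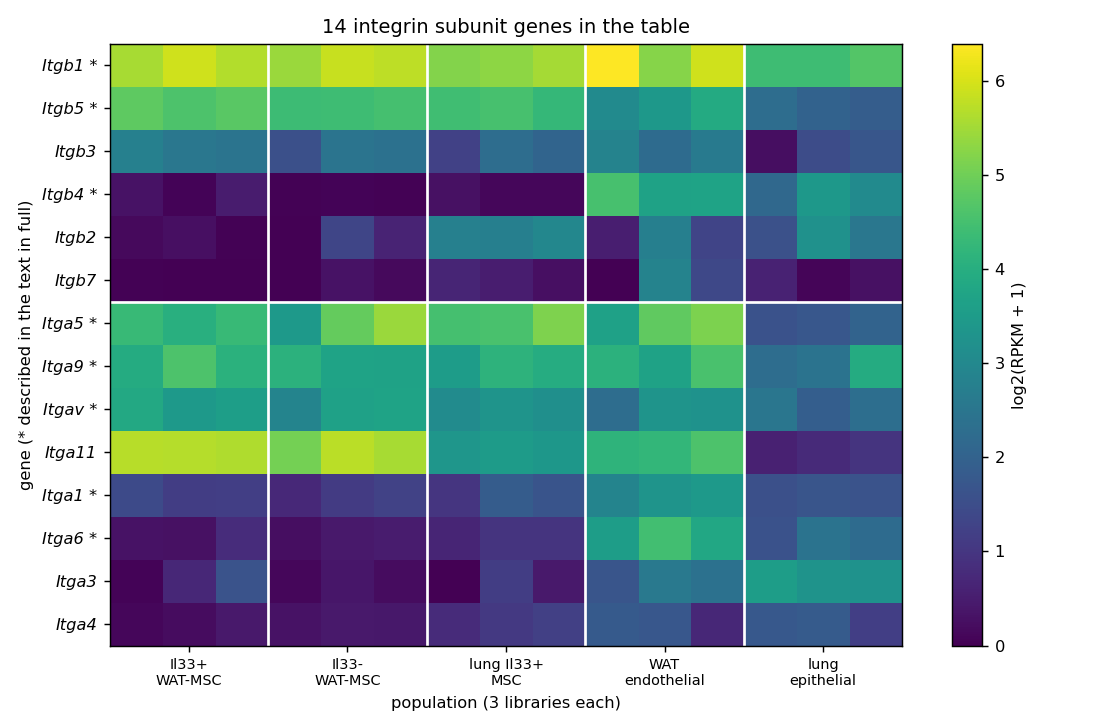
Level, as log2(RPKM + 1) on the colour scale, of the 14 integrin subunit genes in the table (rows; stars mark the 8 genes of the set) in the 15 libraries (columns, 3 per population). Itga11 is brightest in the 6 WAT stromal libraries, and the rows of Itgb4 and Itga6 are brighter in endothelium and epithelium than in stroma.

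Genes of the ligands of these receptors are described next. For the α5β1 ligand fibronectin, Fn1 was at 477.53, 440.40 and 455.65 RPKM in Il33+ WAT-MSC, 197.92, 277.94 and 211.90 in lung Il33+ MSC, 87.59, 283.89 and 287.51 in endothelium and 10.02, 12.48 and 12.16 in epithelium. Fn1 and Itga5 were both lowest in the 3 epithelial libraries. Vtn, the vitronectin gene, was lower in Il33+ than in Il33- WAT-MSC, at 3.86, 2.59 and 2.59 against 14.48, 24.36 and 20.66 RPKM (log2 difference -2.36; limma adjusted p = 0.00370). Its receptor genes Itgav and Itgb5 were not called in that comparison. Of 20 tested ligands of the RGD and other non-collagen list, 1 was higher and 1 lower there (Ctgf at 1.57 and Vtn), with a median of -0.38 against -0.006 over all genes.

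Between WAT and lung Il33+ MSC, 6 of 21 such ligands were higher in WAT and 4 lower, against the 2.50% and 3.50% of all genes. Postn (2.96) and Nov (2.09) were among the former, with Vcam1 (-2.47) and Npnt (-2.06) among the latter. Npnt passed the filter through the lung libraries alone, and Vtn, also among the former, through those of WAT alone. Against WAT endothelium 2 of 21 were higher in Il33+ WAT-MSC and 1 was lower, against 0.565% and 3.34% of all genes. Vcam1, a ligand of α9β1, was at 10.62, 11.56 and 15.93 RPKM in Il33+ WAT-MSC, 65.49, 68.71 and 89.25 in lung Il33+ MSC and 203.01, 67.17 and 83.46 in WAT endothelium. It was called lower in Il33+ WAT-MSC than in endothelium (log2 difference -2.96; limma adjusted p = 0.00521). Npnt, the ligand of α8β1, was at 0.21, 0.17 and 0.79 RPKM in Il33+ WAT-MSC and at 7.59, 4.59 and 2.86 in lung Il33+ MSC. Between lung stroma and epithelium 15 of 20 were higher in stroma and 1 was lower, against 24.4% and 18.5% of all genes, with a median of 2.44 against 0.13 over all genes.

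All 11 collagen genes tested were higher in lung stroma than in lung epithelium, against 24.4% of all genes, with a median of 4.42 against 0.13 over all genes. Of the 11, Col16a1 was at 0.09, 0.11 and 0.32 RPKM in epithelium and passed the filter through the stromal libraries alone. Between the reporter fractions the basement membrane collagens Col4a1 (-1.59; limma adjusted p = 0.00577) and Col4a2 (-1.50; limma adjusted p = 0.0128) were lower in Il33+ WAT-MSC, 2 of 11 tested, against 0.651% of all genes. Col4a1 was at 99.43, 114.53 and 113.96 RPKM in Il33+ and 274.10, 391.55 and 334.17 in Il33- WAT-MSC, while the collagen IV receptor gene Itga1 was not called there. Against WAT endothelium none of the 11 was called by limma, against 3.90% of all genes. An unadjusted limma p under 0.05 was found for 7 of the 11 and for 1335 of the 8665 genes tested. The median of the 11 was 1.13 there, against 0.18 over all genes.

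For the laminin receptors, the laminin genes named here did not all differ in the same direction. Lama2, Lama4, Lamb1, Lamb2 and Lamc1 were higher in lung stroma than in epithelium, with Lamc1 at 155.36, 151.26 and 151.56 against 11.93, 9.85 and 11.46 RPKM. Lama3 and Lama5 were lower in lung stroma, with Lama5 at 0.13, 0.50 and 0.09 against 1.80, 2.96 and 3.10 RPKM. Both passed the filter through the epithelial libraries alone. Of the hemidesmosomal proteins, plectin binds β4 directly, and Plec was at 0.08 to 0.75 RPKM in epithelium and 0.52 to 8.45 in endothelium. Dst, which codes for dystonin, was at 19.71, 25.44 and 25.37 RPKM in endothelium and 3.15, 5.62 and 5.95 in epithelium, and was called in that comparison (log2 difference 2.08; limma adjusted p = 0.00203). Cd151, a tetraspanin partner of α6 and α3 integrins, was at 10.42 to 40.17 RPKM in all 15 libraries and was not called in any of the 5 comparisons.

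Of the 29 listed activators, adaptors and kinases 26 were in the table. Between the reporter fractions limma called none of 23, against 1.57% of all genes. An unadjusted limma p under 0.05 was found for 4 of the 23 and for 980 of the 8448 genes tested. Between the tissues 2 of 23 were called, Tns3 and Zyx, both lower in WAT, against 6.00% of all genes. Against WAT endothelium Parvb (-2.85; limma adjusted p = 0.00400) and Actn1 (-1.79; limma adjusted p = 0.0469) were lower in stroma, 2 of 24, against 3.34% of all genes. Parvb, an adaptor of the ILK complex, was at 8.85, 14.08 and 13.71 RPKM in endothelium and 0.74, 0.75 and 0.93 in Il33+ WAT-MSC. Of the kindlin genes, whose products activate integrins by binding the beta tail, Fermt1 was nearly confined to epithelium, whereas Fermt2 was present in all populations. Fermt1 was at 6.37, 8.92 and 6.26 RPKM in epithelium and at most 0.12 in the 12 other libraries, and was higher in epithelium than in lung stroma (-2.95 for stroma; limma adjusted p = 1.90e-05). Like Itgb4 and Itga6, Fermt1 passed the filter through the epithelial libraries alone, and Parvb through the endothelial libraries alone. Fermt2 was at 9.97 to 16.42 RPKM in epithelium and 20.33 to 56.23 elsewhere. In lung stroma against epithelium 13 of 26 were higher and 3 lower, against 24.4% and 18.5% of all genes. Of the 3 lower genes Cib1, like Fermt1, passed the filter through the epithelial libraries alone, and of the higher ones Lims2 through the stromal libraries alone.

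Over the 15 libraries the genes most like each subunit, by Pearson's r of log2(RPKM + 1) among 4483 genes with a mean of at least 5 RPKM, were as follows. These values describe 5 populations of 3 libraries each and are set mainly by differences between populations. Itgb5 was nearest to Antxr1 (0.989), Gpx3 (0.989) and Bicc1 (0.983). Itga1 was nearest to Sox18 (0.955), Adgrl4 (0.950) and Vwf (0.949), the last of which codes for von Willebrand factor of endothelial cells. Pkp4, which codes for plakophilin 4, was near to both Itgb4 (0.977) and Itga6 (0.959), and the leading gene of Itga6 was Trp53i11 (0.963). Itgb1 was nearest to Nckap1 (0.952), Itga5 to Sidt2 (0.960) and Itgav to Hivep2 (0.930), followed by Tcf21 (0.929). Itga9 had the lowest leading value, 0.862 with Ppa1.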

How the data were processed

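Cells were sorted by flow cytometry into 5 populations with 3 libraries each. Per the labels and the study's methods, RNA was amplified with Ovation RNA-seq System V2, libraries were sequenced on a HiSeq4000, and reads were aligned with TopHat2 in Partek Flow. The submitters' processing notes name the mm10 build. The authors deposited RPKM for 12698 RefSeq transcripts, a value already divided by transcript length and mapped reads. Any filter on low transcripts, and how shared reads were split, is not given in the sources used here. RPKM was summed per symbol here (10222 symbols); 0 value columns were left without a sample.

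Groups and replicate numbers were taken from the labels. Nothing says whether the libraries of a population came from separate mice, so p-values measure only the spread between these libraries. Each of 5 comparisons of 6 libraries had its own fit (R 4.3.3, limma 3.58.1, lmFit and a trended eBayes) of log2(RPKM + 1). Genes entered at 1 RPKM or more in 3 or more libraries, and p was adjusted over all of them by Benjamini-Hochberg, with a threshold of 0.05. An exact permutation test of 3 against 3 libraries cannot go below p = 0.1, so none was run. The fits were checked on simulated data. Other steps used Python 3.11.15 with pandas 2.3.3 and matplotlib 3.10.9.

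The 9 genes, the gene lists and the tests were chosen with earlier results of these data known. The 9 genes are given in each comparison; of each list, up to 4 called members with the largest differences in a comparison and the direct partners or ligands of a described subunit are named. The genes most like a subunit are those with the highest Pearson's r. Alternatives were a block for the replicate number, a lane term, a joint fit of all 15 libraries, median-ratio and quantile scaling, a pseudocount of 0.1, no filter, a filter at 5 RPKM, the most abundant transcript and leaving out each library. Leaving out libraries with the genes tested kept was added after seeing the data. Sequences and positions are from GENCODE M21 (GRCm38).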

Additional observations from a re-analysis of the deposited data

How the results depend on the processing

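Of 578 differences of the 8 genes refitted under the alternatives, 524 kept their direction and side of the threshold, 25 lost and 15 gained a call, and 14 turned direction, none of them a called difference. Between Il33+ and Il33- WAT-MSC, Itgb1 (0.02) was -0.075 with quantile normalization. Without single libraries Itgb1 ran from -0.10 to 0.10, Itga5 from -0.95 to 0.056 and Itgav from -0.059 to 0.36. Between Il33+ WAT-MSC and endothelium, Itga9 (0.09) was -0.11 with median-ratio scaling and -0.28 with Il33- WAT-MSC, where Itga5 was 0.050. Without single libraries Itgb1 ran from -0.45 to 0.13 and Itga9 from -0.13 to 0.30 there, with the genes tested kept (0.13 and -0.13) as without, and Itga1 ran from -0.30 to 0.14 between lung stroma and epithelium.

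Of the genes called in the table, 133 between the WAT-MSC fractions became 232 with the replicate block, 45 without the filter and 49 to 121 without single libraries. The 513 between WAT and lung stroma became 336 in the joint fit and 191 to 447 without single libraries. The 338 between Il33+ WAT-MSC and endothelium became 805 in the joint fit and 56 to 261 without single libraries, or 150 to 447 with the genes tested kept, 150 being without endothelial library 2. The 2560 between endothelium and epithelium became 1085 to 2668. In the set, 0 to 2 genes in place of 3 were called between Il33+ WAT-MSC and endothelium without single libraries, because Itgb4 and Itga6 then fell under the filter when an endothelial library was left out, and 2 to 3 with the genes tested kept. The set had 3 to 6 in place of 6 calls between lung stroma and epithelium, or 5 to 7 with the genes tested kept, and 2 to 6 in place of 5 between endothelium and epithelium.

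Same-numbered libraries had mean correlations of 0.07, 0.006, 0.03, 0.087 and 0.108 in the 5 comparisons, with no comparison in which each pair was over 0.1, so the numbers were not taken as pairs; each library correlated best with its own number in 3 of the 5. With the replicate block 0, 0, 2, 7 and 6 of the 8 genes were called, and Itga1 was not called between Il33+ WAT-MSC and endothelium (limma adjusted p = 0.0545). With 3 libraries a group and no read counts, a difference that was not called may be present but not detectable at this precision.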
